A study of Homo sapiens with 26 samples.

Results

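The comparison described here sets 2 TF-1 clones that lack TET2 against 2 clones with intact TET2 (TET2 +/+), all kept in vehicle until 264 h after the first treatment. TF-1 is an established human erythroleukemia cell line that needs the cytokine GM-CSF to grow. The knockout clones (KO, genotype TET2 -/-) are F4 and A12, and the wild-type clones (WT) are A7 and C4. All 4 cultures received dimethylsulfoxide (DMSO), the solvent of 5-azacytidine (Aza), on 3 consecutive days, matched to the vehicle of the cultures given 200 nM of the drug. The 4 RNA libraries, 1 per clone and all of batch 1, were selected by their labels, and they are 4 of 26 libraries in the study. The other libraries hold the same clones before treatment, at 72 h in DMSO, and at 72 h or 264 h after Aza, plus 6 batch 2 libraries of the KO clones in DMSO. Each library is a bulk culture of 1 clone of 1 line, so p-values measure the spread between clones and not between independent lines.

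TET2 oxidises 5-methylcytosine in DNA to 5-hydroxymethylcytosine, a step toward removal of the methyl group, mostly at CG dinucleotides (CpG). Mutations that disable TET2 are frequent in myeloid neoplasms and in clonal blood cell expansion with age, and loss of TET2 is known to disturb red cell maturation. TF-1 cells stand at a progenitor stage with erythroid, mast cell, basophil and megakaryocyte genes partly active, so genes of these lineages are followed below in turn.

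The 4 libraries held 26278260 to 34604949 counted read pairs, and the floor of 3 counts lay at 0.0858 to 0.112 CPM, the count scaled to a common library size. TF-1 identity genes were present in all 4: GATA2, a stem and mast cell transcription factor, ran from 527 to 823 CPM, and CD34, a progenitor surface antigen, from 282 to 446 CPM. The cytokine receptor subunits CSF2RA and IL3RA were listed at 0 in all 4. They lie in the pseudoautosomal region shared by the X and Y chromosomes, where 33 of 36 genes had no count in any of the 26 libraries, so these zeros are not read as absence of the receptors. The 2 libraries of a genotype were separate beyond counting error, with a chi-square of 15.5 (KO) and 13.1 (WT) per degree of freedom. The median SD between clones was 0.12 on the log2 scale in KO and 0.10 in WT.

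The knockout is not visible in the TET2 gene count. TET2 RNA (chromosome 4, 106067032 to 106200973, hg19) stood at 29.7 CPM in F4, 40.9 CPM in A12, 29.2 CPM in A7 and 29.9 CPM in C4. The KO clone A12 was therefore the high one, and F4 lay within the WT range. The log2 difference of KO minus WT was 0.26 (95% interval -0.14 to 0.67, adjusted p = 0.597), and a count over all exons cannot check a small deletion, so genotypes are used as labelled. Coding genes around TET2 on chromosome 4, between 100 and 120 Mb, were higher in A12 than in F4 by a median log2 of 0.58. The other TET genes and the DNA methyltransferases differed little: TET1 by a log2 of -0.12, TET3 by 0.11, the maintenance enzyme DNMT1 by -0.04, and the de novo enzymes DNMT3A and DNMT3B by -0.11 and 0.03, none called. The signs of TET3, DNMT3A and DNMT3B turned in alternatives given in the closing section.

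Of 16333 genes tested with edgeR, 34 (0.208%) passed an adjusted p under 0.05 and are called here, 22 higher in KO (0.135%) and 12 lower (0.0735%). The differences were unequal in size: 19 of the 22 higher genes rose at least 2-fold and 11 at least 4-fold, while only 2 of the 12 lower genes, HBA1 and ACP3, fell at least 2-fold. Of the higher genes, 10 stood below 1 CPM on average in WT. The median log2 difference of all genes tested was 0.00, with 10th and 90th percentiles of -0.36 and 0.44. KO and WT libraries did not overlap for any of the 34, and 33 of 34 lay within 1.5-fold between the KO clones (FYN was at 1.72-fold). Both traits are favoured by calling genes in these same libraries and are not separate support. The share of all genes without overlap is not given for these 4 libraries. Before treatment, 18.3% of all genes were above WT in both KO clones and 18.9% below. The number of calls moved with single libraries. All adjusted p of called genes lay between 0.0286 and 0.0480, and the count was 0 without WT clone A7, 8 without C4, 91 without A12, 633 without F4 and 0 with a non-robust fit. DESeq2 called 408 genes (2.33% of 17536), the 34 among them, and each of the 34 kept its direction in every alternative tried. At an unadjusted p under 0.05, 1067 genes were higher (6.53%) and 760 lower (4.65%).

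**Figure D1:**
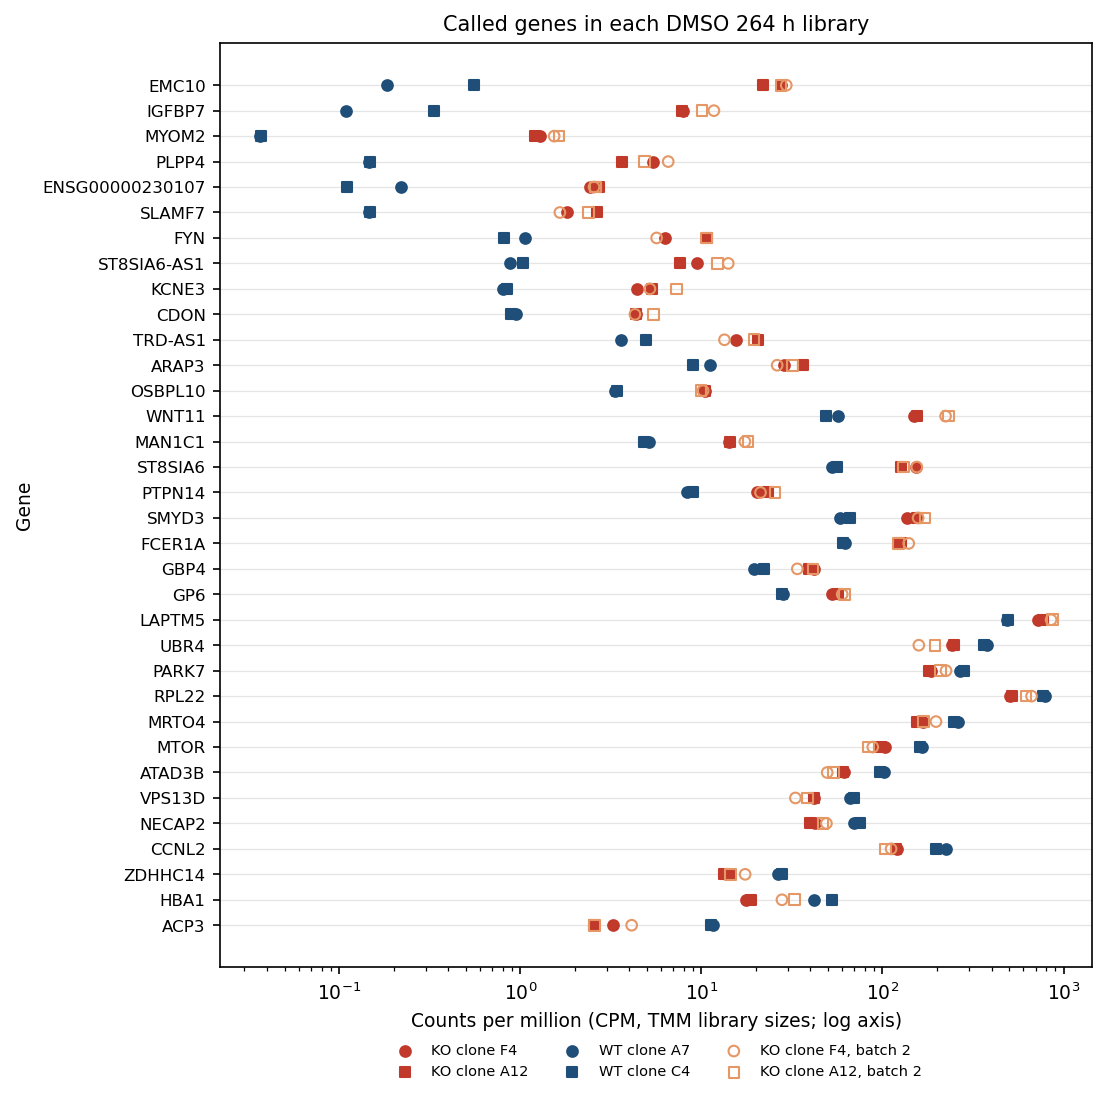
Level of each called gene (rows) in CPM on a log axis in the DMSO 264 h libraries: KO clones in filled red, WT clones in filled blue, and the KO clones of batch 2 in open orange symbols, 1 point per library. For all 34 genes the red and blue points do not overlap, and EMC10 to CDON, the genes at the top, stand at or below 1.06 CPM in WT. The 34 were called in these same batch 1 libraries, which favours such separation.

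Several genes were near the detection floor in WT and present in both KO clones. EMC10, a subunit of the endoplasmic reticulum complex that inserts membrane proteins (chromosome 19, 50979657 to 50986608), stood at 27.5 CPM in F4 and 21.9 CPM in A12 against 0.183 CPM in A7 and 0.553 CPM in C4. That is a log2 difference of 6.07 (SE 0.37, adjusted p = 0.0286), the largest of the 34. IGFBP7, a secreted protein of the insulin-like growth factor binding family (chromosome 4, 57896939 to 57976551), stood at 7.90 and 7.83 CPM in KO and at 0.110 and 0.332 CPM in WT (log2 5.14, SE 0.40, adjusted p = 0.0286). For both genes the KO clones lie far above both WT clones, and the WT values rest on few counts, 5 and 15 for EMC10 and 3 and 9 for IGFBP7. PLPP4, a lipid phosphatase (chromosome 10, 122216466 to 122349367), was at 5.44 and 3.63 CPM in KO and at 0.146 and 0.148 CPM in WT (log2 4.92, SE 0.39, adjusted p = 0.0286). MYOM2, a protein of the muscle sarcomere, had 77 counts in the KO libraries and 2 in the WT libraries, a CPM ratio of 34.0 with a 95% counting interval of 9.11 to 286 (adjusted p = 0.0466). A long noncoding RNA of chromosome 22 known by its identifier ENSG00000230107 (42834029 to 42842201) had 158 counts in KO and 9 in WT, a CPM ratio of 15.5 with a counting interval of 7.97 to 34.6 (adjusted p = 0.0457). Such intervals cover counting error only.

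To show what kind of sequence lies at the start of such genes, RefSeq promoter windows (GRCh38.p14, 250 bases before to 50 after the start) are printed for the strongest rises and the strongest fall with an entry, and for FCER1A, whose window has no CpG. They are in the gene's own direction with every CG in capitals. The windows are chr19:50476257-50476556 for EMC10, chr10:120456704-120457003 for PLPP4, chr1:159302086-159302385 for FCER1A and chr3:132317157-132317456 for ACP3, all on the plus strand.
EMC10: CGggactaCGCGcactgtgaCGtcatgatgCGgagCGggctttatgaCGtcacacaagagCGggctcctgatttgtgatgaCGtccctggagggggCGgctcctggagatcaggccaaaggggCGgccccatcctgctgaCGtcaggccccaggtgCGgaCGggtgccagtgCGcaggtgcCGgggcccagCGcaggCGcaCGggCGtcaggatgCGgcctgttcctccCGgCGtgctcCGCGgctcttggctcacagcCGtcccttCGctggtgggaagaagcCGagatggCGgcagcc
PLPP4: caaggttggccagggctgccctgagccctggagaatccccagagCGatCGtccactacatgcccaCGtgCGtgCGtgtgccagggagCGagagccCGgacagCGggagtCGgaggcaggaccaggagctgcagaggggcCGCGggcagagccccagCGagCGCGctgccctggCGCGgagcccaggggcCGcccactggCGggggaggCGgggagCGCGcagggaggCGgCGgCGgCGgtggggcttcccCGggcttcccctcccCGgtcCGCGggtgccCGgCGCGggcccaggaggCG
FCER1A: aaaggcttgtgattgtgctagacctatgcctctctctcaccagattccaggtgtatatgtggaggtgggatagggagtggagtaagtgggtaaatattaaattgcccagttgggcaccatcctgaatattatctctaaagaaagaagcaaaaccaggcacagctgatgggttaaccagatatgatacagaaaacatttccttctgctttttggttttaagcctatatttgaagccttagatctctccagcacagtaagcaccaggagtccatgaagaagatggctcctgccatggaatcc
ACP3: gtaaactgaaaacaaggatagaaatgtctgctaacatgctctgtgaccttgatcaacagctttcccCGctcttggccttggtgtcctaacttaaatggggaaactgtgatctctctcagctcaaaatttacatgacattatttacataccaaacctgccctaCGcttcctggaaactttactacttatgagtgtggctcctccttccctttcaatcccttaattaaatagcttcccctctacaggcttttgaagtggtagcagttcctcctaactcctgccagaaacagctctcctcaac
EMC10 and PLPP4 start in CpG-dense windows, with 29 and 33 CpG in 300 bases, whereas FCER1A has 0 and ACP3 has 2. Both kinds occurred among the genes that rose. Of the 34 called genes, 25 had a window in the RefSeq table, and the median number of CpG was 26 for the 15 higher and 30.5 for the 10 lower genes, against 26 for the 11061 tested genes with a window. At most 5 CpG were found for 4 of the 15 higher genes (FCER1A, TRD-AS1, GBP4 and LAPTM5) and 1 of the 10 lower genes (ACP3), and for 8.69% of tested genes. The erythroid GATA-type word AGATAA, searched on both strands, was in 3 of the 25 windows (ARAP3, FCER1A and GP6) and in 10.3% of the 35116 windows of the table. These letters describe the windows only, and DNA methylation was not analysed here.

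Genes of several protein classes that rose are described together for reading and were not tested as a group. WNT11, a secreted Wnt ligand of the non-canonical branch, stood at 149 and 154 CPM in KO and 56.8 and 48.6 CPM in WT (log2 1.53, SE 0.10, adjusted p = 0.0286). CDON, a co-receptor for Hedgehog ligands, stood at 4.38 and 4.34 CPM in KO and 0.949 and 0.886 CPM in WT (log2 2.25, SE 0.24, adjusted p = 0.0466). In both genes the spread within a genotype is small beside the gap between genotypes. SLAMF7, a receptor best known on natural killer and plasma cells, was at 1.80 and 2.66 CPM in KO and 0.146 and 0.148 CPM in WT (log2 3.89, adjusted p = 0.0466). FYN, a Src-family tyrosine kinase, was at 6.27 and 10.8 CPM in KO, with A12 the higher clone, and at 1.06 and 0.812 CPM in WT (log2 3.19, SE 0.35, adjusted p = 0.0480). KCNE3, an accessory subunit of potassium channels, was at 4.43 and 5.36 CPM against 0.803 and 0.849 CPM (log2 2.57, adjusted p = 0.0457). PTPN14, a tyrosine phosphatase of the Hippo pathway, and ARAP3, a GTPase-activating protein regulated by phosphoinositides, rose by a log2 of 1.34 and 1.70, from 8.36 and 9.00 CPM to 20.4 and 23.4 CPM and from 11.1 and 8.97 CPM to 28.7 and 36.2 CPM. LAPTM5, a lysosomal membrane protein of blood cells, had the smallest rise, from 486 and 492 CPM to 724 and 767 CPM (log2 0.62, SE 0.06).

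The genes that rose also included ST8SIA6 and MAN1C1, which modify glycans in the Golgi. ST8SIA6, which adds sialic acid to glycans (chromosome 10, 17360382 to 17496329), stood at 153 and 127 CPM in KO and 52.5 and 56.4 CPM in WT (log2 1.37, SE 0.11, adjusted p = 0.0286). Its antisense partner ST8SIA6-AS1, inside the same interval, stood at 9.41 and 7.60 CPM against 0.876 and 1.03 CPM (log2 3.16, SE 0.24). Reads were counted without regard to strand, so strand does not separate reads of these genes wherever their exons overlap. Whether their exons overlap was not examined. Other coding genes within the first 20 Mb of chromosome 10 were lower in A12 than in F4 by a median log2 of -0.43 and below WT by a median of -0.21. MAN1C1, a mannosidase that trims N-glycans, rose from 5.11 and 4.83 CPM to 14.2 and 14.3 CPM (log2 1.53, SE 0.14). Also higher were SMYD3, a lysine methyltransferase (137 and 154 CPM against 58.5 and 65.9 CPM), OSBPL10, a lipid-transfer protein (10.5 and 10.5 CPM against 3.32 and 3.43 CPM), GBP4, an interferon-inducible GTPase (42.0 and 39.4 CPM against 19.5 and 22.1 CPM), and TRD-AS1, a noncoding transcript at the T cell receptor delta locus (15.6 and 20.5 CPM against 3.58 and 4.94 CPM).

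Of the 12 lower genes, 9 lie within the first 20 Mb of chromosome 1, at the end of its short arm. MTOR, the kinase at the centre of nutrient signalling (11166592 to 11322564), stood at 103 CPM in F4 and 97.8 CPM in A12 and at 164 and 160 CPM in A7 and C4 (log2 -0.69, SE 0.07, adjusted p = 0.0457). CCNL2, a cyclin that acts in splicing, fell from 224 and 198 CPM to 121 and 118 CPM, a log2 of -0.81 (SE 0.08, adjusted p = 0.0457). RPL22, a ribosomal protein, fell from 789 and 774 CPM to 509 and 519 CPM, and MRTO4, a ribosome assembly factor, from 260 and 249 CPM to 168 and 156 CPM. These falls are alike in size. The other 5 are PARK7, a sensor of oxidative stress (log2 -0.58), UBR4, a ubiquitin ligase (-0.58), ATAD3B, a mitochondrial ATPase (-0.70), VPS13D, a lipid transporter between organelles (-0.70), and NECAP2, an endocytic adaptor (-0.80).

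The whole end of the arm was lower, not these genes alone. Of 157 coding genes tested in the first 20 Mb, 148 lay below 0 and 121 had an unadjusted p under 0.05 and were lower (4.65% of all genes were), with a median log2 of -0.55. The 9 called lower compare with 0.0735% of all genes. Relative to each gene's mean over the 4 libraries, the median level was -0.22 in F4, -0.33 in A12, 0.28 in A7 and 0.28 in C4, so both clones of each genotype lay on the same side. Between 25 and 30 Mb the difference ran the other way: 70 coding genes had a median of 0.34, and 40 had an unadjusted p under 0.05 and were higher (6.53% of all genes were), MAN1C1 being the 1 called. Among 152 windows of 20 Mb across the genome, 138 had a median within 0.1 of 0, and the end of chromosome 1 had the lowest median. Because both KO clones differ from both WT clones here, the segment and the genotype cannot be told apart for these 9 genes or for MAN1C1. Outside the first 20 Mb of chromosome 1, 25 genes were called, all 22 of the higher genes and 3 lower genes, HBA1, ACP3 and ZDHHC14.

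ACP3, the prostatic acid phosphatase (chromosome 3, 132036211 to 132087142), had the strongest fall of the 34. It stood at 3.23 and 2.55 CPM in KO and at 11.5 and 11.3 CPM in WT (log2 -1.96, SE 0.19, adjusted p = 0.0457). ZDHHC14, a palmitoyltransferase, stood at 14.3 and 13.3 CPM in KO and 26.5 and 27.9 CPM in WT (log2 -0.97, SE 0.11, adjusted p = 0.0466). Clones of the same genotype were close to each other in both, which calling genes in these same libraries favours. Before treatment ACP3 stood at 6.56 and 2.39 CPM in KO and at 17.0 and 14.9 CPM in WT.

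Of the 25 gene lists, the hemoglobin list had the median farthest from 0. Of its 11 members, 10 passed the filter on low counts, 9 globin genes and the alpha-globin chaperone AHSP, and HBM did not. All 10 lay below 0, with a median log2 of -2.04 against 0.00 over all genes tested. HBA1 alone was called lower (0.0735% of all genes were), and 8 of 10 had an unadjusted p under 0.05 (4.65% of all genes were lower at that level). DESeq2 called 5 lower (158 of 17536 genes were). HBA1, an alpha-globin gene (chromosome 16, 226679 to 227521), stood at 17.6 CPM in F4 and 18.9 CPM in A12 and at 41.6 CPM in A7 and 52.7 CPM in C4 (log2 -1.36, SE 0.14, adjusted p = 0.0457). HBA2, its near-identical neighbour, stood at 52.6 and 33.7 CPM in KO and 163 and 216 CPM in WT (log2 -2.12, SE 0.26, adjusted p = 0.0898), and it was not called. The split of reads between HBA1 and HBA2, and between HBG1 and HBG2, is uncertain because the copies are nearly identical. In bulk RNA, fewer hemoglobin-making cells and less globin RNA per cell cannot be told apart.

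HBB and HBG2 had larger SEs of the log2 difference (0.48 and 0.76) than HBA1 and HBA2 (0.14 and 0.26). HBZ, the embryonic alpha-like chain, stood at 2.26 and 1.80 CPM in KO and 7.01 and 9.82 CPM in WT (log2 -2.03, adjusted p = 0.0583). HBB, the adult beta chain, stood at 13.8 and 5.24 CPM in KO and 44.8 and 34.8 CPM in WT (log2 -2.04, adjusted p = 0.278). HBG2, a fetal gamma chain, stood at 34.3 and 12.5 CPM in KO and 78.7 and 179.99 CPM in WT (log2 -2.44, adjusted p = 0.432), with A12 lowest and C4 highest. KO and WT did not overlap for any of these 3, and the clones of a genotype differed by more than 2-fold for HBB in KO and for HBG2 in both genotypes. The share of all genes below WT without overlap is not given for these libraries (18.9% before treatment). Before treatment HBG2 did overlap, at 62.7 and 25.9 CPM in KO and 199 and 60.1 CPM in WT. HBB and HBZ did not, and HBZ was then at 1.81 and 2.31 CPM in KO and 5.70 and 2.52 CPM in WT. HBD, HBE1 and HBG1 had log2 differences of -1.10, -2.28 and -2.27, none called. HBQ1, the theta chain, and AHSP had smaller ones, -0.37 and -0.64, and neither kept its sign in every alternative. The annotated HBG2 model spans 5274420 to 5667019 on chromosome 11, across other genes, so its count is not purely that of the fetal gene. The summed level of the list was 138 CPM in F4, 84.9 CPM in A12, 360 CPM in A7 and 524 CPM in C4.

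**Figure D2:**
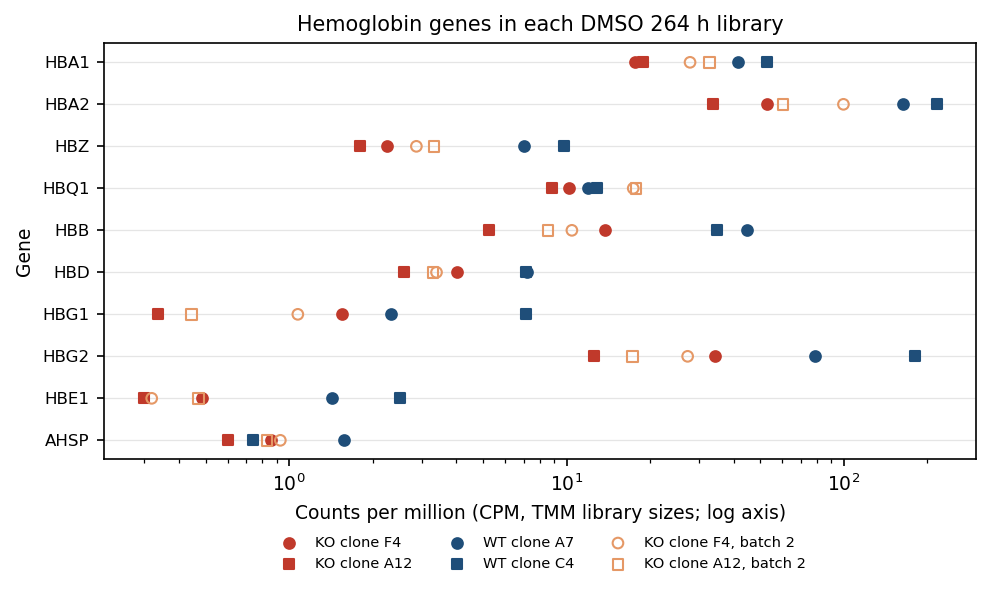
Level of the 10 tested hemoglobin genes (rows) in CPM on a log axis, 1 point per DMSO 264 h library, with the same colours as in the plot of called genes. WT points (blue) lie above batch 1 KO points (red) for every gene except AHSP, where they overlap, and batch 2 KO points (orange) lie below WT except for HBQ1 and AHSP.

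Batch 2 gives another culture of the KO clones in DMSO at 264 h, with no WT culture beside it. HBA1 stood at 27.9 and 32.7 CPM and HBA2 at 99.6 and 60.2 CPM in those libraries, higher than in batch 1 and still below both WT libraries. Earlier batch 2 KO libraries had HBA1 at 40.7 and 42.9 CPM (0 h) and 36.9 and 32.5 CPM (72 h). Batch 1 WT had 43.1 and 43.5 CPM before treatment and 41.2 and 43.3 CPM at 72 h in DMSO. At 264 h in batch 2, all 22 higher genes were above, and all 12 lower genes below, the 2 WT libraries (31.8% of all genes were above and 31% below). These comparisons share their WT libraries with the main one. With the batch 2 libraries added to KO, 120 genes were called, 29 of the 34 among them, and HBA1, UBR4, PARK7, RPL22 and MRTO4 were lost (adjusted p up to 0.184).

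In the other 4 lists of red cell maturation edgeR called 0 genes. DESeq2 called 9 lower (158 of 17536 genes were) and 1 higher (250 of 17536 were). In the heme and iron list, 7 of 20 members had an unadjusted p under 0.05 and all 7 were lower (4.65% of all genes were), with a median log2 of -0.08. ALAS2, the erythroid enzyme that starts heme synthesis, stood at 2.86 and 1.31 CPM in KO and 8.51 and 13.3 CPM in WT (log2 -2.35, adjusted p = 0.147), and TFRC, the transferrin receptor, at 2419 and 1806 CPM against 3529.7 and 2994 CPM (log2 -0.62, adjusted p = 0.311). DESeq2 called both lower. In the red cell membrane list, with a median of -0.24, 5 of 26 were lower and 2 higher at an unadjusted p under 0.05 (6.53% of all genes were higher). ANK1, the ankyrin that anchors the membrane skeleton, had a log2 difference of -0.51 (adjusted p = 0.0799) and CD44, an adhesion receptor that declines as erythroid cells mature, one of 0.48 (adjusted p = 0.0932). DESeq2 called CD44 higher and ANK1, GYPC and SPTB lower, the last (log2 -1.39) named here after its value was seen. Red cell enzymes had a median of -0.31, with 5 of 17 lower and 1 higher at that level, among them catalase, CAT (log2 -0.59), and pyruvate kinase, PKLR (-2.23). Erythroid transcription factors split in direction, 6 of 24 lower and 4 higher, with a median of -0.08. The lower ones included KLF1, an activator of adult globin genes (87.8 and 68.8 CPM against 108 and 131 CPM, log2 -0.60), BCL11A, a repressor of fetal globin (log2 -0.88), and LMO2 (-0.43), while GFI1B was at 0.36. DESeq2 called KLF1, BCL11A, LMO2 and, among the enzymes, CAT lower.

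A mast cell gene and a platelet gene were among those that rose. FCER1A, the alpha chain of the high-affinity IgE receptor on mast cells and basophils (chromosome 1, 159259504 to 159278014), stood at 122 and 127 CPM in KO and 61.9 and 60.3 CPM in WT (log2 1.04, SE 0.07, adjusted p = 0.0286). It was the 1 called member of 16 tested, of 25, in the list for mast cells, basophils and eosinophils (0.135% of all genes were called higher). Of the 16, 5 were higher and 0 lower at an unadjusted p under 0.05 (6.53% higher among all genes), with a median log2 of 0.78. The others were HDC, the enzyme that makes histamine (3.89 and 3.75 CPM against 2.19 and 1.96 CPM, log2 0.89), IL1RL1, the interleukin-33 receptor (log2 2.07), the tryptase TPSB2 (1.65) and ENPP3 (1.25), with adjusted p of 0.208 to 0.414. IL1RL1, TPSB2 and ENPP3 were each highest in A12, with F4 between A12 and the WT clones. TPSB2 was at 1.49 CPM in F4, 3.37 CPM in A12, 0.986 CPM in A7 and 0.553 CPM in C4. The list summed to 194 and 197 CPM in KO and 116 and 110 CPM in WT, of which FCER1A alone gave 122 and 127 CPM and 61.9 and 60.3 CPM. The eosinophil granule genes PRG2, EPX and RNASE2 and the mast cell protease CMA1 were too low to be tested.

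GP6, the collagen receptor of platelets (chromosome 19, 55525073 to 55549632), stood at 52.8 and 56.9 CPM in KO and 28.1 ± 0.122 CPM in WT (SD, n = 2; log2 0.97, SE 0.09, adjusted p = 0.0457). It was the 1 called of 15 tested megakaryocyte genes, of 23 in the list, and 6 of the 15 were higher and 0 lower at an unadjusted p under 0.05 (6.53% and 4.65% of all genes were), with a median of 0.43. DESeq2 called 4 higher (250 of 17536 genes were), GP6, MMRN1, ITGB3 and F13A1. The last (log2 3.45) is named here after its value was seen. MMRN1, a platelet granule protein, stood at 25.7 and 40.5 CPM in KO and 11.1 and 8.97 CPM in WT (log2 1.73, adjusted p = 0.102). It lies on the long arm of chromosome 4, where neighbouring genes were higher in A12 than in F4. ITGB3, the platelet fibrinogen receptor chain, was at 17.6 and 20.0 CPM against 10.7 and 12.7 CPM (log2 0.69, adjusted p = 0.150), and GP1BA, the receptor for von Willebrand factor, had a log2 difference of 0.43. RAB27B, a granule transport protein, differed by 2.99 with at most 1.31 CPM in any library. PF4 and GP1BB had 0 counts in all 4 libraries, and the list summed to 909 to 982 CPM.

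Among markers of other blood and tissue cells edgeR called 0 genes. DESeq2 called CD3D, ALB, KRT18 and GATA2 higher (250 of 17536 genes were). The neutrophil and monocyte list summed to 214 to 230 CPM in all 4 libraries, with ELANE and PRTN3 at 0 counts, and its median was 0.04. Of 7 lymphoid genes tested, 3 lay above 0 and 4 below, with a median log2 of -0.12. The largest difference was that of CD3D, a chain of the T cell receptor complex. It stood at 17.0 and 58.2 CPM in KO and 3.39 and 0.812 CPM in WT (log2 4.16, SE 1.06, adjusted p = 0.359). The B cell antigen MS4A1 was at 0 counts throughout. Of 8 genes tested for endothelium, stroma and epithelium, 2 were higher and 1 lower at an unadjusted p under 0.05, and ALB, the serum albumin gene, stood at 4.21 and 1.31 CPM in KO and 0.183 and 0.369 CPM in WT. In the stem and progenitor list, 11 genes were tested, 5 above 0 and 6 below, with a median log2 of -0.01. Among them GATA2 (log2 0.43) and CD34 (0.40) were higher at an unadjusted p under 0.05 (6.53% of all genes were). The part of other cell states in the genotype difference was not tested.

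The list of targets and feedback inhibitors of cytokine signalling included 3 of 19 with an unadjusted p under 0.05, all higher (6.53% of all genes were). EdgeR called 0 of them and DESeq2 all 3 (250 of 17536 genes were called higher by DESeq2). PIM2, a survival kinase, stood at 81.7 and 97.3 CPM in KO and 52.6 and 51.3 CPM in WT (log2 0.79, SE 0.10, adjusted p = 0.0623). DUSP6, a phosphatase that limits ERK, was at 15.8 and 18.2 CPM against 8.25 and 9.74 CPM (log2 0.93, adjusted p = 0.0899), and SOCS3, a feedback inhibitor of cytokine receptors, at 25.5 and 26.9 CPM against 16.3 and 18.0 CPM (log2 0.62, adjusted p = 0.0995). KO and WT did not overlap for these 3, which were named for their small p in the same libraries. The share of all genes above WT without overlap is not given for these libraries (18.3% before treatment). Of 23 p53 targets, 6 were higher and 0 lower at an unadjusted p under 0.05 (6.53% and 4.65% of all genes were), with a median of 0.13, and neither tool called any. CDKN1A, the p21 cell cycle inhibitor, stood at 4.06 and 4.72 CPM against 2.41 and 1.37 CPM (log2 1.22, adjusted p = 0.238), and ZMAT3 differed by 0.45.

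In the remaining lists edgeR called 0 genes. DESeq2 called 1, the interferon-induced IFI44, higher (log2 0.50), as it did 250 of 17536 genes. At an unadjusted p under 0.05, 0 of 25 genes of the G1/S phase, 0 of 24 of G2 and mitosis and 0 of 13 of the mitochondrial genome differed, and their medians were -0.07, -0.05 and -0.04. Those higher were 1 of 14 BCL2 family genes, 4 of 22 stress genes, 3 of 26 interferon response genes, 2 of 21 antigen presentation genes, 1 of 13 imprinted genes and 1 of 21 genes of the DNA methylation machinery (6.53% of all genes were). Those lower were 3 of 23 cholesterol synthesis genes, 1 of 26 interferon response genes and 1 of 21 antigen presentation genes (4.65% of all genes were). The antigen presentation list had a median of -0.42 and summed to 2426 CPM in A7 against 1339 to 1638 CPM in the other 3 libraries, with A7 standing apart. Of 24 germline and cancer-testis genes, 7 were tested and 0 had an unadjusted p under 0.05. MAGEA3, one of them, stood at 86.8 and 113 CPM in KO and at 1.35 and 23.7 CPM in WT (log2 3.01, SE 1.38, adjusted p = 0.567), with a log2 difference of 4.06 between the WT clones. Reads of the near-identical MAGEA genes may be split between copies.

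**Figure D3:**
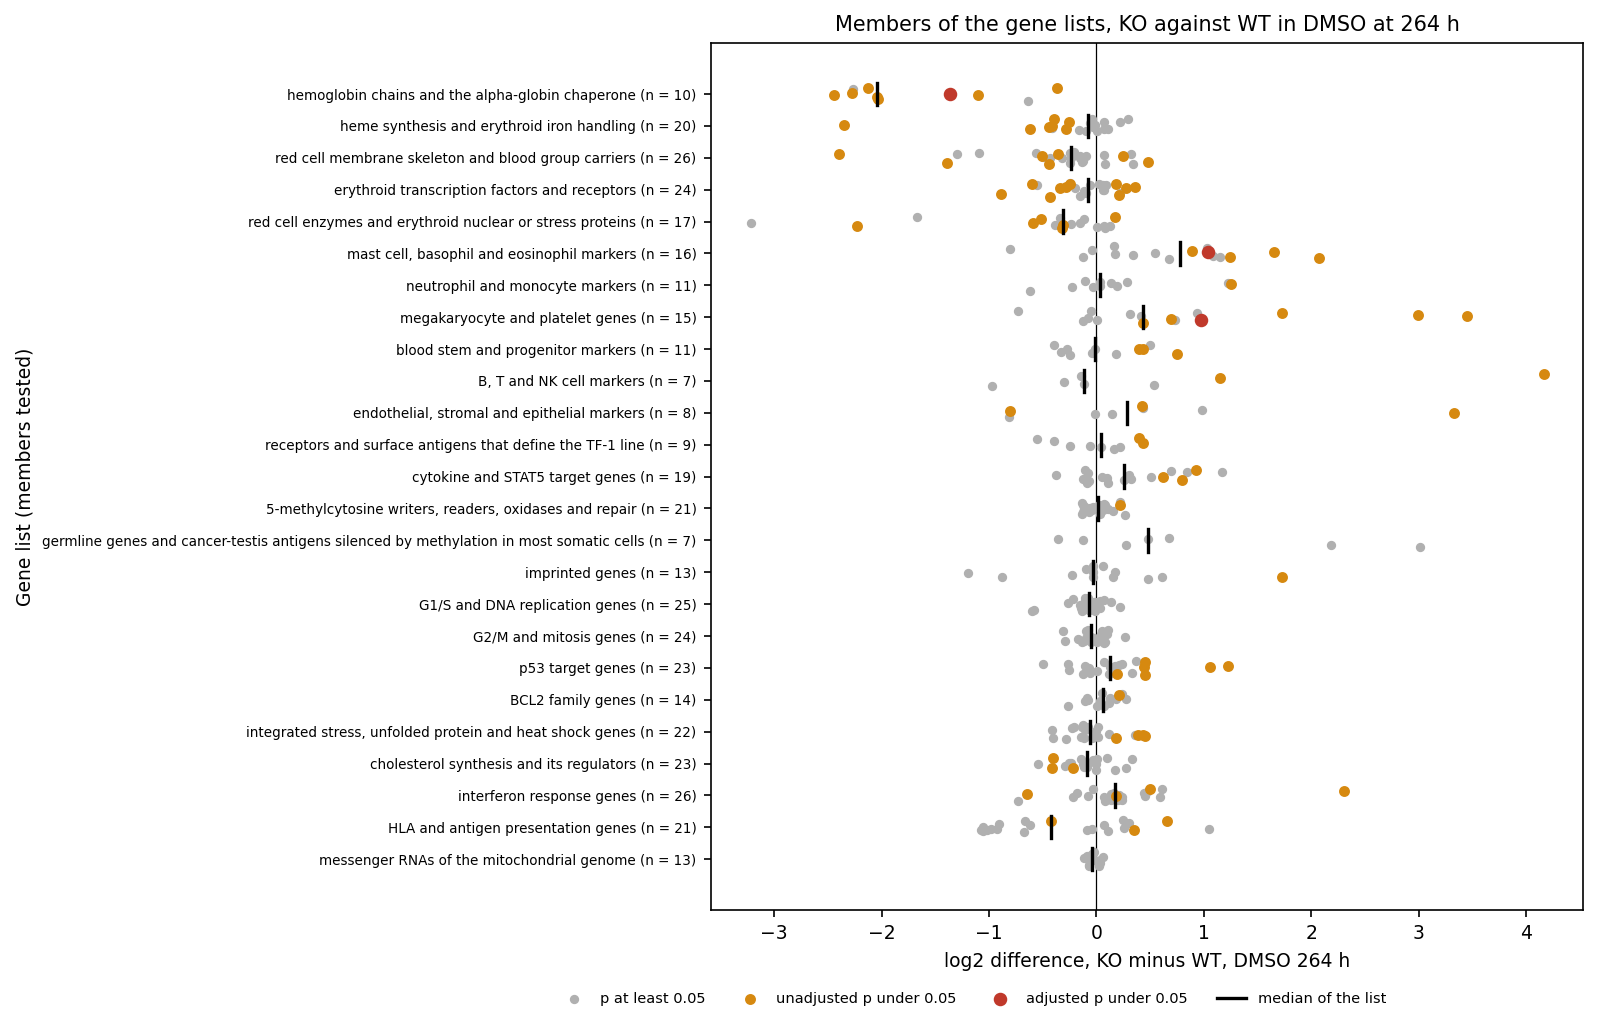
Differences of KO minus WT on the log2 scale for the tested members of each gene list, 1 point per gene, with the list's median as a black bar and points spread vertically for display. Red marks an adjusted p under 0.05 (HBA1, FCER1A and GP6), orange an unadjusted p under 0.05, and grey the rest. The hemoglobin list lies wholly below 0, with a median of -2.04, and the mast cell list has a median of 0.78.

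Some large differences were not called by edgeR. DESeq2 called CD3D, OXCT1 and CD22 higher and HBA2 and LRP11 lower among the 12 largest (250 and 158 of 17536 genes were). Among those with a mean of at least 10 CPM, MAGEA12, a cancer-testis antigen, stood at 61.2 and 80.0 CPM in KO and 0.110 and 6.49 CPM in WT (log2 4.43, adjusted p = 0.431), and its neighbour CSAG1 at 16.2 and 21.8 CPM against 0.146 and 2.51 CPM. OXCT1, a mitochondrial enzyme of ketone body use, had a log2 difference of 2.38, CD22, a B cell and basophil surface lectin, of 1.98, and MS4A3, a basophil and granulocyte precursor antigen, of 1.85. On the lower side were HBBP1, a globin pseudogene (-2.78), TNFRSF25, a death receptor (-2.20), and LRP11 (-1.71). TNFRSF25 lies in the first 20 Mb of chromosome 1 and stood at 17.3 and 5.84 CPM in KO and 48.2 and 59.7 CPM in WT.

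Large differences between clones of 1 genotype were similar in number to those between genotypes. Among 9150 genes with a mean of at least 10 CPM, 61 differed at least 2-fold between the KO clones, 48 between the WT clones, and 64 between the genotype means. The clone pairs compare single libraries, while each genotype mean averages 2, so these counts are not on equal terms. TMPRSS15, an intestinal protease gene, was at 0.0572 CPM in F4 and 38.6 CPM in A12. ENAH, an actin regulator, was at 0.256 CPM in A7 and 42.8 CPM in C4, and PLP2, a membrane protein, at 22.6 and 0.849 CPM. MAGEA6 was high in 1 clone of each genotype, at 86.6 CPM in F4 and 69.6 CPM in C4 against 9.92 CPM in A12 and 1.06 CPM in A7. COL27A1 and CPS1 were higher in A12 than in F4, and CD74, the invariant chain of antigen presentation, was lower (28.5 against 148 CPM). Coding genes of chromosome 12 within the first 20 Mb and of chromosome X between 140 and 160 Mb were higher in C4 than in A7 by medians of 0.58 and 0.60.

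The same clones harvested at other times showed the same direction for all 34 genes. Before treatment every higher gene was above WT in both KO clones and every lower gene below (18.3% and 18.9% of all genes were). This also held at 72 h in DMSO with 1 KO library (38.2% and 36.6%), at 72 h after Aza (19.6% and 20.7%) and at 264 h after Aza (22.3% and 21.6%). Over all 25 libraries that passed quality control, 26 of the 34 did not overlap between genotypes, 19 of them higher (1.05% of all genes) and 7 lower (0.612%). EMC10 ran from 18.2 to 32.8 CPM in 15 KO libraries (median 24.3) and from 0.0993 to 1.56 CPM in 10 WT libraries (median 0.484). WNT11 ran from 116 to 232 CPM in KO and from 35.7 to 85.1 CPM in WT, while HBA1 overlapped, at 17.6 to 42.9 CPM in KO and 41.2 to 88.3 CPM in WT. These libraries come from the same 4 clones, so they repeat the clone difference and do not add clones.

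The median log2 of the 22 higher genes was 1.89 in DMSO at 264 h, 1.96 before treatment, 1.67 at 72 h after Aza and 1.91 at 264 h after Aza, and that of the 12 lower genes was -0.70, -0.74, -0.70 and -0.76. Of the 34, 5 were called before treatment (0.0543% of all genes were), 12 at 72 h after Aza (0.19%) and 5 at 264 h after Aza (0.0488%). When the genotype difference in DMSO at 264 h was itself compared with that of each other condition in edgeR, 0 of 19098 genes were called against the pre-treatment, Aza 72 h or Aza 264 h difference (0%). At an unadjusted p under 0.05 there were 393, 429 and 650 genes, and DESeq2 called 0, 0 and 1. Among the 34, IGFBP7 had the smallest unadjusted p of these tests: its KO minus WT difference was 5.14 in DMSO at 264 h and 3.16 after Aza at 264 h, a change of 1.98 (SE 0.44) that did not pass the correction (adjusted p = 1). PLPP4 and KCNE3 also had smaller differences after Aza at 264 h, 2.97 and 1.54 against 4.92 and 2.57, as did RPL22 and PARK7 of the chromosome 1 segment, -0.29 and -0.34 against -0.60 and -0.58. These 4 had an unadjusted p under 0.05 and did not pass the correction either. The 34 were chosen on the DMSO 264 h libraries, so smaller differences elsewhere can come from that choice. In WT, IGFBP7 went from 0.110 and 0.332 CPM in DMSO to 0.519 and 1.11 CPM after Aza at 264 h. PLPP4 in WT went from 0.146 and 0.148 CPM to 0.623 and 0.536 CPM. In KO, IGFBP7 stood at 7.90 and 7.83 against 7.63 and 6.90 CPM, and PLPP4 at 5.44 and 3.63 against 5.15 and 4.06 CPM. RPL22 in KO went from 509 to 525 CPM in F4 and from 519 to 642 CPM in A12. PARK7 in KO went from 186 to 191 CPM in F4 and from 180 to 230 CPM in A12. In WT, RPL22 went from 789 and 774 to 734 and 690 CPM, and PARK7 from 269 and 283 to 261 and 272 CPM.

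**Figure D4:**
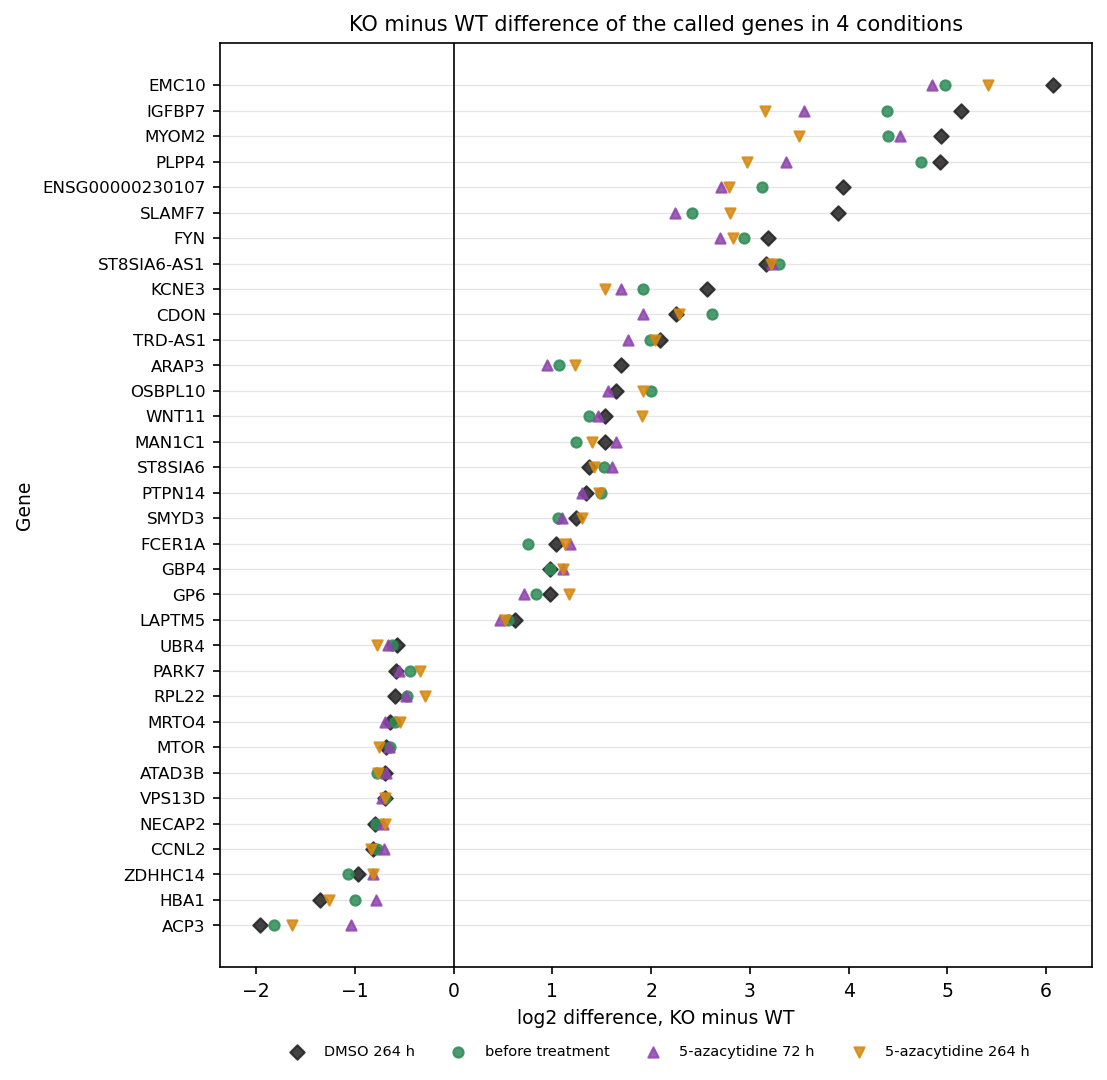
Difference of KO minus WT on the log2 scale (horizontal axis) for each called gene (rows), in DMSO at 264 h (black diamonds), before treatment (green circles), at 72 h after Aza (purple) and at 264 h after Aza (orange), from batch 1 libraries of the same 4 clones. All points of a gene lie on the same side of 0, and IGFBP7 ranges from 3.16 to 5.14.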

How the data were processed

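RNA was measured in bulk TF-1 cultures. The read counts per gene were deposited as raw counts. Per the labels' protocols, the library kit was Illumina's stranded TruSeq for mRNA, and a NovaSeq was used. Per the file headers, the authors ran featureCounts 1.6.2 on read pairs against GENCODE 19 exons, setting no strand option. The submitters' processing notes also name STAR 2.6.1d, cutadapt, FastQC, DESeq2 and hg19. Coordinates are those of the deposited table. Symbols came from a current gene name table for 51996 of 57773 IDs and from GENCODE release 29 for 342 more. Of 521 list memberships, 518 matched.

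From the counts, CPM were computed with TMM library sizes over 25 libraries. KO was compared with WT in the 4 libraries with edgeR 4.0.16 (R 4.3.3): filterByExpr, TMM, robust quasi-likelihood test, Benjamini-Hochberg adjustment over all genes tested, called under 0.05. SEs and intervals come from that fit. On simulated counts with 200 changed genes, the test was checked before use. The simulation gave every gene the same spread and changed only well-expressed genes. It therefore does not check calls at low counts or with uneven clones. The change of the genotype difference between conditions was tested as an interaction in the 19 passing batch 1 libraries with a clone term. The shared clone pairs libraries across conditions. Over 3000 variable genes, a clone's departure from its genotype mean in DMSO at 264 h correlated with that in other conditions at 0.491 to 0.538 in KO and 0.385 to 0.442 in treated WT, but at -0.45 in pre-treatment WT, whose libraries resemble each other's later label. Both are WT, so the KO against WT comparisons do not change. The clone term enters every interaction test, however, and exchanged labels could raise the spread estimated there. The exchange was tried only for the pre-treatment test.

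Alternatives were DESeq2 1.42.0, no filter, other scaling, other spread estimates, batch 2 added, and each library left out. The library failing sequencing quality control was left out. Named genes are all called genes, the TET and DNMT genes, all hemoglobin genes, up to 4 members of each other list with the smallest p, the 6 largest uncalled differences each way and the 5 largest within each genotype, the last 2 among genes with a mean of at least 10 CPM. Members and lists were chosen with earlier results of these data known. One result of the stem and progenitor list is not reported here.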

Additional observations from a re-analysis of the deposited data

How the results depend on the processing

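The 34 calls (22 higher, 12 lower) became 408 with DESeq2 (250 and 158), 1113 with no filter on low counts (727 and 386), 306 with the spread taken over all batch 1 libraries (167 and 139), 120 with batch 2 KO libraries added (78 and 42), 28 with library totals alone (21 and 7) and 0 with the non-robust fit (0 and 0), where the smallest adjusted p of the 34 was 0.0553. RLE factors gave 34. Leaving out 1 library gave 0 to 633 calls, 0 to 389 higher and 0 to 244 lower; the lone library of a genotype is then assumed to vary like the other genotype. The higher share was 64.7%, against 54.6% with the wider spread, 75.0% with library totals and 100% (8 of 8) without C4. The 34 were all called again with DESeq2, no filter, RLE, the wider spread and without F4, and 33, 29, 28, 2 and 0 of them without A12, with batch 2, with library totals, without C4 and without A7. The cause was not tested. The KO against WT calls of other conditions also moved, from 9 before treatment to 277 with DESeq2 and 785 with no filter, from 31 at 72 h after Aza to 341 and 884, and from 8 at 264 h after Aza to 450 and 1270.

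Dropping the clone term (no replicate block) left the 3 interaction counts at 0, as did exchanging the pre-treatment WT labels in the 1 test where this was run. With no filter they were 25 (pre-treatment), 18 (Aza 72 h) and 17 (Aza 264 h), and DESeq2 gave 1 for Aza 264 h. The sign turned for uncalled genes only: TET3 -0.026, DNMT3B -0.013 and HBQ1 0.12 with batch 2 added. Leaving out 1 library gave -0.287 to 0.077 for DNMT3A, -0.073 to 0.128 for DNMT3B and -1.08 to 0.0027 for AHSP. Depth limits genes near 0.1 CPM, where 3 counts or fewer stand behind a WT value, and 2 clones per genotype limit every p-value.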
